A study of Mus musculus with 12 samples.

Results

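The transcription factor BCL6 represses genes by bringing corepressor proteins to DNA, and the 9 genes described here are *Bcl6*, its paralog *Bcl6b* and 7 genes for proteins that BCL6 is known to recruit (*Ncor1*, *Tbl1xr1*, *Hdac3*, *Bcor*, *Bcorl1*, *Mta3* and *Ctbp1*). They were chosen by gene symbol, as 9 of the 24561 genes in the count table, without use of a measured value. Of the 9, 8 passed the expression filter and were tested among 12719 genes, and *Bcl6b* did not pass.

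Messenger RNA was sequenced from mouse OT-II follicular helper T (Tfh) cells, which carry a transgenic T cell receptor for ovalbumin. The cells had been transferred into CD45.1 *Sap*-/- recipients, whose own T cells lack the adaptor SAP and give little help to B cells, and were sorted as CXCR5hiPD-1hi cells from draining lymph nodes 3 days after immunization with NP-OVA and LPS in alum. In the wild-type label the transferred cells carried *Cd4-cre* alone, and in the BCL6-insufficient label they carried *Cd4-cre* and *Bcl6* fl/+, so that Cre, driven by the *Cd4* gene, can delete 1 of the 2 *Bcl6* alleles in T cells. Each label had 3 recipient mice, each sampled as 2 technical repeats of about 200 cells, and the number of donor mice is not given in the sources used here, so recipients of a label may share a donor.

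Levels below are normalized CPM, which are counts scaled to the library size after TMM normalization. A fold change is the log2 ratio of the BCL6-insufficient over the wild-type label, with its standard error (SE), from edgeR's quasi-likelihood test on the counts of the 6 mice with Benjamini-Hochberg adjustment over all 12719 genes. Because the *Bcl6* transcript went against the genotype labels, groups are named by label, and each direction depends on those labels being right. Counts per gene do not tell a deleted allele from an intact one, nor a transcript that makes protein from one that does not. In sorted bulk samples, fewer cells of a type and less RNA per cell cannot be told apart.

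BCL6 is the factor that defines Tfh cells and germinal center B cells. Its N-terminal BTB domain docks corepressors such as NCoR1 and BCOR in a shared groove, and its middle repression domain binds the MTA3 form of the NuRD deacetylase complex. NCoR1 carries the histone deacetylase HDAC3 together with TBL1XR1, TBL1X and GPS2, whereas BCOR and BCORL1 belong to a Polycomb complex (PRC1.1) that ubiquitinates histone H2A. CTBP1 is a further corepressor of BCL6, and works with histone demethylases and deacetylases.

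*Bcl6* lies on chromosome 16 of GRCm38 at 23965052 to 23988852, on the minus strand. RefSeq (GRCm38.p6) lists a pair of *Bcl6* start sites, and the 250 bases before each are shown because they are the control regions of the gene that differed most among the 9. The upstream one ends at the annotated 5′ end of the gene (chr16:23988853-23989102). The downstream one lies inside the first intron (chr16:23981284-23981533). Capitals mark each match to TTCNNNGAA, the core letters bound by STAT factors, which are known to act on *Bcl6*.

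*Bcl6* upstream start, minus strand: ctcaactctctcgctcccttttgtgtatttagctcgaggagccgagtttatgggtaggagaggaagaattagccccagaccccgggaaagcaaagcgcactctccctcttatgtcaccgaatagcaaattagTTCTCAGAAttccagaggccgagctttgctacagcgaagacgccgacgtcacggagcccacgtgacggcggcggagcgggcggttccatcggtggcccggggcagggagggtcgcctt

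*Bcl6* intronic start, minus strand: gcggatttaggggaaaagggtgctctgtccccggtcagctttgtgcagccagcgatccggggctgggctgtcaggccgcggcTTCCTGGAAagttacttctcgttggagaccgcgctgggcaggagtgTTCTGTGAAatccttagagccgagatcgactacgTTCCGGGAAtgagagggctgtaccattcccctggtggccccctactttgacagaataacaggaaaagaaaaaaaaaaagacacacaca

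The search read both strands, over 250 bases before and 50 after each start. The upstream start held 1 match, beginning 118 bases before it, and the intronic start held 3, beginning 168, 122 and 88 bases before it. The first of these 3 also matched TTCCTNGAA, a stricter form of the core whose letters resemble the site that BCL6 itself is known to bind, and every match to TTCCTNGAA is also a match to TTCNNNGAA. Of all 32851 RefSeq promoters, 8.298% held TTCNNNGAA and 1.59% held TTCCTNGAA. RefSeq promoters were matched for 6 of the 9 genes, 9 promoters in all. Besides *Bcl6*, TTCNNNGAA was found once in each of a pair of overlapping *Bcor* promoters and once in 1 of the *Ncor1* promoters, where it also matched TTCCTNGAA, and these letters were not found in the windows of *Bcorl1*, *Tbl1xr1* or *Ctbp1*. A match describes letters and does not show that a factor was bound.

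The *Bcl6* transcript was higher with the BCL6-insufficient label. It stood at 150, 146 and 150 normalized CPM in mice 1, 2 and 3 of that label. In the wild-type label mice 1, 2 and 3 had 54.8, 75.6 and 56.9 normalized CPM. All mice labelled BCL6-insufficient were above all mice labelled wild-type. The means were 149 ± 2.18 and 62.4 ± 11.5 (SD, n = 3 mice each), a 2.38-fold difference (log2 fold change 1.25, SE 0.12, edgeR adjusted p = 6.3e-07). The single libraries also did not overlap, with normalized CPM of 138 to 166 against 46.6 to 100.01. In raw counts the libraries held between 251 and 1127 *Bcl6* reads. The call was kept in all 25 alternative analyses, with log2 fold changes of 1.097 to 1.40.

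The SD of *Bcl6* over mice was 2.18 normalized CPM in the BCL6-insufficient label and 11.5 in the wild-type label. This difference was not tested and rests on a single library of wild-type mouse 2. The 2 repeats of a mouse are separate libraries of about 200 cells each. They were close for BCL6-insufficient mice 2 and 3, at 146.0 and 145.8 and at 148.5 and 149.0 normalized CPM. They were farther apart for wild-type mouse 2, at 100.01 and 56.5 normalized CPM, so that a single library raised that mouse above the other wild-type mice. Its repeat 2 lay between wild-type mice 1 and 3, at 54.8 and 56.9 normalized CPM. Without that library the log2 fold change of *Bcl6* was 1.40 (adjusted p = 3.18e-07 from edgeR's test). Over the 6 mice the median absolute log2 difference between repeats was 0.30 for *Bcl6*, and 43.0% of the genes tested had a smaller one.

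**Figure D1:**
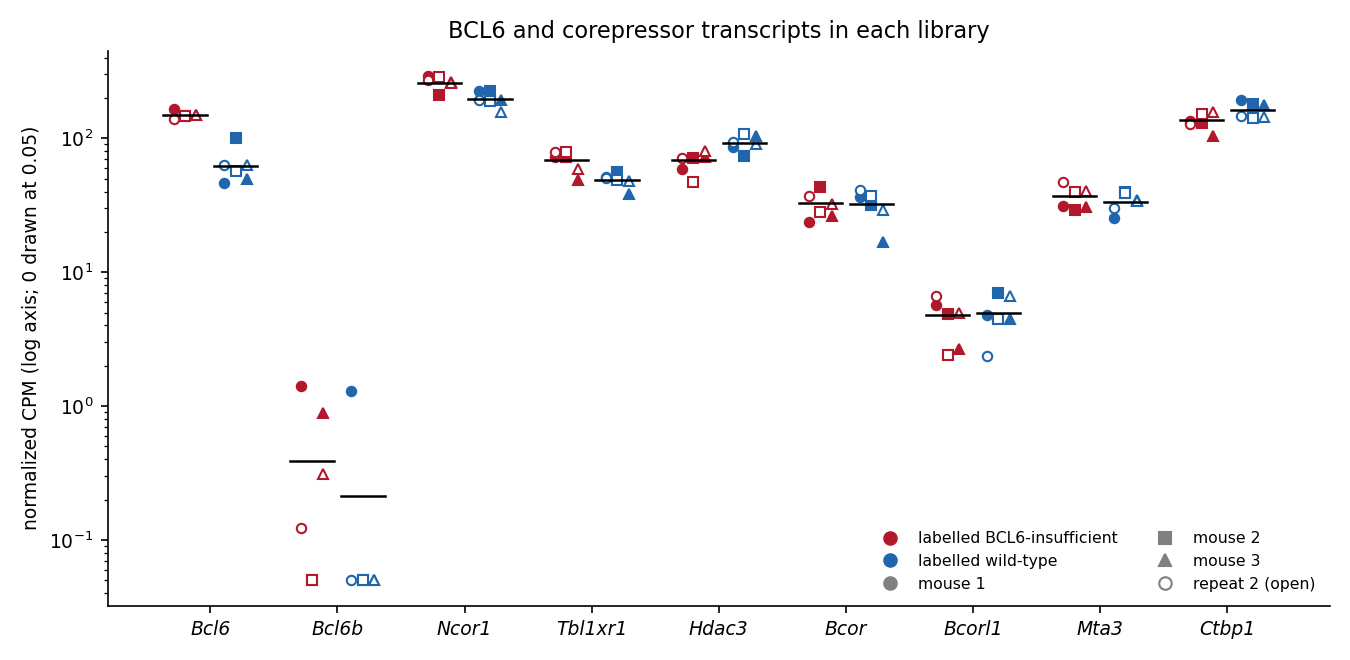
Normalized CPM on a log axis for the 9 genes in each of the 12 libraries, colored by label, with the symbol giving the mouse, open symbols the technical repeat 2 and black lines the mean of the 3 mice. The libraries of the labels are apart for *Bcl6*, at 138 to 166 against 46.6 to 100.01 normalized CPM, and overlap for the other 8 genes.

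A second annotated gene offered a separate count at the 5′ end of *Bcl6*. *Gm37419* (chr16:23988482-23988595, plus strand) runs against *Bcl6*, over the last 21 bases of its first exon and the first 93 bases of its first intron (chr16:23978590-23988574). It was singled out after its values were seen, and how the counting treated strand is not given in the sources used here. Reads of *Bcl6* pre-mRNA and of *Gm37419* therefore cannot be told apart in this count. The 93 intronic bases are shown on the *Bcl6* strand, with the splice donor GT in capitals, because they hold most of the counted interval and are made largely of repeated triplets.

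*Bcl6* intron 1, first bases (chr16:23988482-23988574), minus strand: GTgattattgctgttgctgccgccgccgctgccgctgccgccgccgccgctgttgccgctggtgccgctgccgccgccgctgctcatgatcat

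*Gm37419* moved with *Bcl6*. Mice 1, 2 and 3 labelled BCL6-insufficient had 13.3, 14.2 and 14.1 normalized CPM of *Gm37419*, and mice 1, 2 and 3 labelled wild-type had 7.14, 9.69 and 7.66. The mice did not overlap, and the means were 13.9 ± 0.466 and 8.16 ± 1.35 (SD, n = 3 each). The log2 fold change was 0.76 (SE 0.24, edgeR adjusted p = 0.0292). It passed the threshold in 16 of 25 alternatives and in 1 of the 6 fits that left out a mouse, with log2 fold changes of 0.67 to 0.89 in those fits. Without any 1 of BCL6-insufficient mice 1, 2 and 3 and wild-type mice 1 and 3 the call was lost, with adjusted p of 0.0572, 0.0724, 0.0602, 0.1098 and 0.101 in that order.

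Per 100 *Bcl6* reads, the mice labelled BCL6-insufficient had 8.88, 9.69 and 9.39 *Gm37419* reads. The mice labelled wild-type had 13.0, 12.8 and 13.5. The means were 9.32 ± 0.407 and 13.1 ± 0.328 (SD, n = 3 each), and the mice did not overlap. An exact two-sided permutation test gave p = 0.1, the smallest that 3 against 3 mice allows. The separation rests on repeat 1 of wild-type mouse 2, which had 16.4 *Gm37419* reads per 100 *Bcl6* reads where repeat 2 had 7.67. Without that library, an alternative chosen after seeing the data, the mouse lay below all 3 BCL6-insufficient mice, the wild-type mean was 11.4 ± 3.23 (SD, n = 3) and the exact two-sided permutation test gave p = 0.4. *Bcl6* is in the denominator of this ratio, and *Bcl6* itself was called, so the ratio is not independent of that difference.

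**Figure D2:**
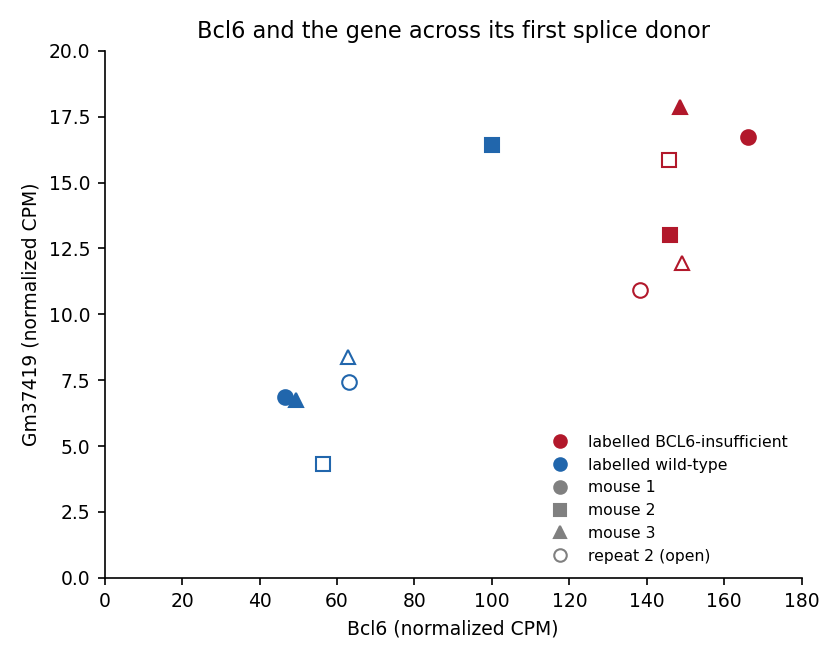
Normalized CPM of *Bcl6* (x axis) against *Gm37419* (y axis), the gene across its first splice donor, in the 12 libraries, with symbols for mice and open symbols for technical repeat 2. The other 5 wild-type libraries lie at 46.6 to 63.0 CPM of *Bcl6*, repeat 1 of wild-type mouse 2 stands apart at 100.01 CPM of *Bcl6* and 16.4 CPM of *Gm37419*, and the BCL6-insufficient libraries lie at 138 to 166 CPM of *Bcl6*.

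Of the 8 genes tested, 3 were higher with the BCL6-insufficient label (*Bcl6*, *Ncor1* and *Tbl1xr1*), 1 was lower (*Hdac3*) and 4 did not pass the test (*Bcor*, *Bcorl1*, *Mta3* and *Ctbp1*). Among all genes tested, 18% were called, 9.17% higher and 8.82% lower. Among the genes with a mean of at least 30 normalized CPM, which include 7 of the 8, 31.5% were called. The mice of the labels did not overlap for 5 of the 8 genes, against 34.4% of all genes tested. The median log2 fold change was 0.09 over the 8 genes and 0.01 over all genes tested. Leaving out BCL6-insufficient mouse 2 or wild-type mouse 3 reduced the 4 called genes to 2. Leaving out the 3 libraries with the most B cell transcripts, an alternative chosen after the data were seen, also left 2, *Bcl6* and *Ncor1*. These libraries, ranked on B cell markers other than *Ighm*, were both repeats of BCL6-insufficient mouse 2 and repeat 2 of wild-type mouse 3. A whole mouse is thus dropped, and leaving out that mouse alone kept the same 2 genes. The part of B cell transcripts cannot be told apart from that of the mouse.

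The genes of the NCoR complex went in different directions. *Ncor1*, the scaffold of the complex (chr11:62316426-62458541, minus strand), had 279, 241 and 261 normalized CPM in mice 1, 2 and 3 labelled BCL6-insufficient and 209, 205 and 171 in mice 1, 2 and 3 labelled wild-type. No mouse labelled wild-type reached the lowest mouse of the other label. The means were 260.2 ± 19.4 and 195 ± 20.8 (SD, n = 3 each), with a log2 fold change of 0.42 (SE 0.10, edgeR adjusted p = 0.00634). The call was kept in 20 of 25 alternatives and was lost without wild-type mouse 3 (log2 fold change 0.32, edgeR adjusted p = 0.0572). It was also lost with technical repeat 1 alone (0.25, edgeR adjusted p = 0.315), whereas repeat 2 alone gave 0.60. On log2(TPM + 1) the log2 fold change was 0.29 (limma adjusted p = 0.139, or 0.176 over all genes), and on log2(TPM + 0.1) it was 0.30 (limma adjusted p = 0.140).

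*Tbl1xr1* (chr3:22076652-22216594, plus strand), whose product exchanges corepressors for coactivators, was also higher. Mice 1, 2 and 3 labelled BCL6-insufficient had 76.5, 75.0 and 55.7 normalized CPM, and mice 1, 2 and 3 labelled wild-type had 50.6, 52.1 and 43.7. The groups did not overlap, but BCL6-insufficient mouse 3 was closer to the wild-type mice than to the other mice of its label. The means were 69.1 ± 11.6 and 48.8 ± 4.48 (SD, n = 3 each), with a log2 fold change of 0.50 (SE 0.14, edgeR adjusted p = 0.0131). This was the least stable of the 4 calls and was kept in 15 of 25 alternatives. It was lost without BCL6-insufficient mouse 1 (adjusted p = 0.0750), without BCL6-insufficient mouse 2 (adjusted p = 0.0690), without wild-type mouse 3 (adjusted p = 0.0781) and, at a log2 fold change of 0.28 in place of 0.50, after removal of GC and length trends (adjusted p = 0.141, or 0.137 with the replicate block as well, all from edgeR's test). It was also lost with technical repeat 1 alone (log2 fold change 0.41, adjusted p = 0.190) and without the 3 libraries richest in B cell transcripts (0.48, adjusted p = 0.0970, both from edgeR's test). On log2(TPM + 1) the log2 fold change was 0.23 (limma adjusted p = 0.303, or 0.569 over all genes), and on log2(TPM + 0.1) it was 0.34 (limma adjusted p = 0.336). Its transcripts reach 8237 bases at 41.9% GC, the lowest GC content of the 9 genes.

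*Hdac3*, the deacetylase of the complex, was lower. It stood at 66.3, 62.1 and 77.7 normalized CPM in mice 1, 2 and 3 labelled BCL6-insufficient and at 89.8, 91.8 and 96.2 in mice 1, 2 and 3 labelled wild-type. The mice did not overlap, although the single libraries did, at 47.3 to 79.8 against 73.2 to 107 normalized CPM. The means were 68.7 ± 8.09 and 92.6 ± 3.25 (SD, n = 3 each), with a log2 fold change of -0.43 (SE 0.12, edgeR adjusted p = 0.0122). The call was kept in 21 of 25 alternatives and was lost without BCL6-insufficient mouse 2 (log2 fold change -0.37, edgeR adjusted p = 0.07), with technical repeat 1 alone (-0.38, edgeR adjusted p = 0.178), without the 3 libraries richest in B cell transcripts (-0.41, edgeR adjusted p = 0.0869) and on log2(TPM + 1) over all genes (-0.56, limma adjusted p = 0.0669).

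*Ncor1*, *Tbl1xr1* and *Ctbp1* also overlap annotated genes on the opposite strand, such as Ttc19 and Pigl at the ends of *Ncor1*. These held 2 to 862 reads over the 12 libraries, against 15993 for *Ncor1*, 4172 for *Tbl1xr1* and 10476 for *Ctbp1*, and reads of such pairs cannot be told apart without strand.

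The subunits *Gps2* and *Tbl1x* did not pass the test. *Gps2* had a log2 fold change of 0.25 (adjusted p = 0.0882) and *Tbl1x* of 0.15 (adjusted p = 0.405, both from edgeR's test).

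*Bcor* (chrX:12036740-12160355, minus strand) and *Bcorl1* (chrX:48341358-48408049, plus strand), whose products join BCL6 to PRC1.1, did not differ beyond the spread between mice. *Bcor* had 31.7, 37.2 and 30.4 normalized CPM in mice 1, 2 and 3 labelled BCL6-insufficient and 38.5, 34.5 and 23.9 in mice 1, 2 and 3 labelled wild-type. The ranges lay over each other, with wild-type mouse 3 the lowest of the 6, and the log2 fold change was 0.04 (SE 0.18, edgeR adjusted p = 0.911). *Bcorl1* was much lower, at 4.80 ± 1.27 and 4.96 ± 1.203 normalized CPM (SD, n = 3 each) and 9 to 54 reads in a library. Its log2 fold change was -0.04 with a standard error of 0.36 (adjusted p = 0.953 from edgeR's test), so at this depth only a large difference could have been detected. Both genes are X-linked, and *Xist*, the RNA that silences an X chromosome in females, was detected in all 12 libraries, at 348 to 567 normalized CPM with the BCL6-insufficient label and 225 to 359 with the wild-type label. It was called higher in the former (log2 fold change 0.57, edgeR adjusted p = 0.0033). Its part in these values was not tested.

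Among the partners of BCOR in PRC1.1, *Usp7*, a deubiquitinase, was higher, at 94.99 ± 2.95 against 48.1 ± 9.64 normalized CPM (SD, n = 3 each; log2 fold change 0.98, SE 0.13, edgeR adjusted p = 2.87e-05). The mice of the labels did not overlap. The other 9 of the 10 genes tested, *Bcor* and *Bcorl1* among them, were not called. They included *Kdm2b* (log2 fold change -0.37), which brings the complex to CpG islands, *Pcgf1* (0.41), and the ubiquitin ligases *Rnf2* (-0.29) and *Ring1* (-0.63). The median over the 10 was -0.14.

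*Mta3*, the NuRD subunit tied to BCL6 (chr17:83706163-83821516, plus strand), had 40.4, 33.2 and 37.5 normalized CPM in mice 1, 2 and 3 labelled BCL6-insufficient and 27.7, 38.9 and 34.1 in mice 1, 2 and 3 labelled wild-type. The mice overlapped, and the log2 fold change was 0.14 (SE 0.16, edgeR adjusted p = 0.592). Technical repeat 2 was above repeat 1 in all 3 mice labelled BCL6-insufficient, by 0.59, 0.44 and 0.41 on the log2 scale, and with repeat 1 alone the sign of the difference turned (log2 fold change -0.13).

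Over all genes tested, called genes divided almost evenly, at 9.17% higher and 8.82% lower. Among genes of at least 30 normalized CPM, 31.5% were called in either direction. Of the 14 NuRD genes tested, *Mta3* included, 9 passed the test, 5 higher and 4 lower. Higher were *Mbd2*, which binds methylated DNA, at 74.3 ± 7.07 against 32.6 ± 3.08 normalized CPM (SD, n = 3 each; log2 fold change 1.19, edgeR adjusted p = 2.55e-06), and the scaffold subunit *Gatad2b*, at 59.8 ± 4.21 against 37.6 ± 7.42 (SD, n = 3 each; log2 fold change 0.67, edgeR adjusted p = 0.00255). Lower were the histone chaperone *Rbbp4*, at 213 ± 17.5 against 343 ± 25.9 normalized CPM (SD, n = 3 each; log2 fold change -0.69, edgeR adjusted p = 4.76e-05), and the deacetylase *Hdac1*, at 195 ± 21.1 against 282 ± 17.3 (SD, n = 3 each; log2 fold change -0.53, edgeR adjusted p = 0.000737). The rest of the called genes were *Mbd3* (0.52), *Chd4* (0.44) and *Cdk2ap1* (0.34) among the higher and *Mta2* (-0.52) and *Rbbp7* (-0.50) among the lower. Thus the MTA paralogs differed in their values, with *Mta2* called lower and *Mta1* (0.44, adjusted p = 0.0937 from edgeR's test) and *Mta3* not called. A direct test between the paralogs was not made. The median over the 14 genes was 0.12, and leaving out each mouse gave 3 to 5 genes higher and 4 lower, with 3 of them higher without BCL6-insufficient mouse 3. With repeat 2 alone 2 were higher and 4 lower, on log2(TPM + 1) and on log2(TPM + 0.1) 1 was higher and 4 lower, and on log2(TPM + 1) over all genes 1 and 1.

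**Figure D3:**
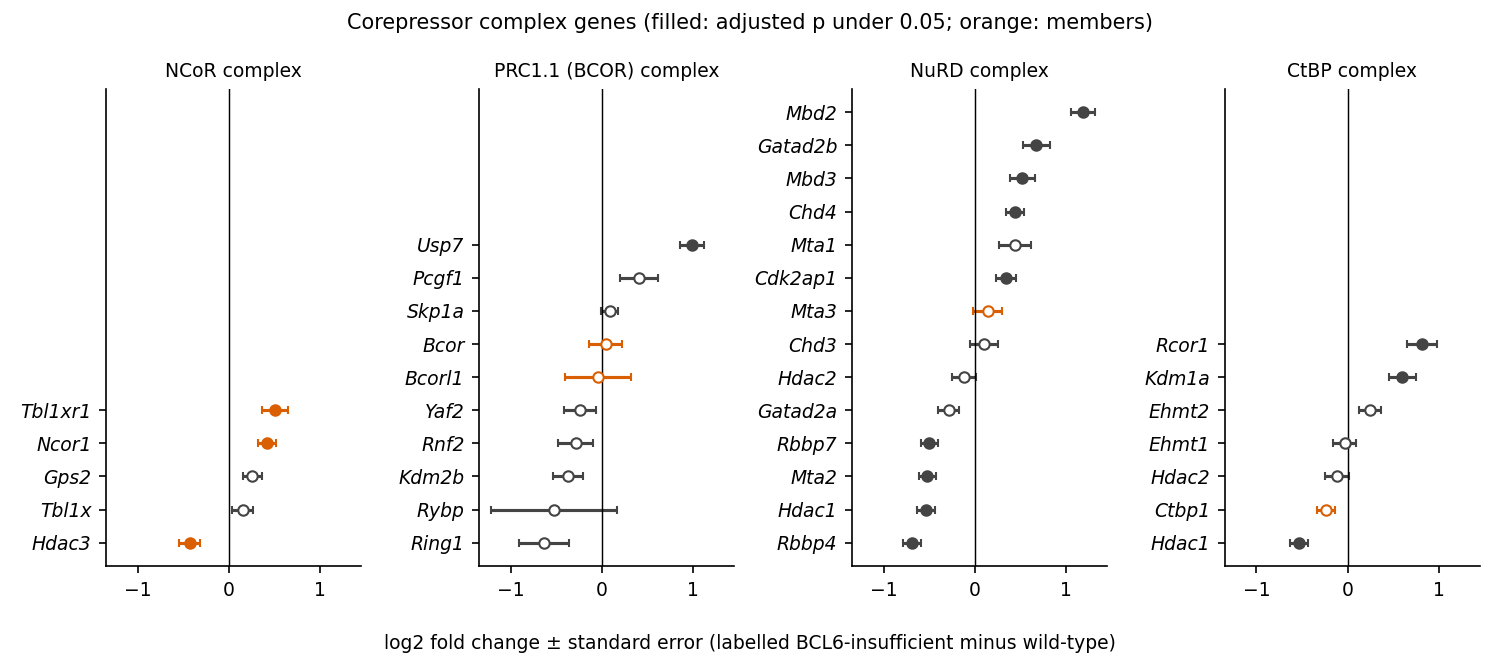
Log2 fold change with standard error for tested genes of the NCoR, PRC1.1, NuRD and CtBP complexes, with filled symbols for an adjusted p under 0.05 and orange for the corepressors described one by one. The NuRD panel holds 5 genes called higher, led by *Mbd2* at 1.19, and 4 called lower, led by *Rbbp4* at -0.69. Over all genes tested 9.17% were called higher and 8.82% lower.

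*Ctbp1* (chr5:33247723-33274994, minus strand) had 131, 139 and 140.3 normalized CPM in mice 1, 2 and 3 labelled BCL6-insufficient and 169, 159 and 156 in mice 1, 2 and 3 labelled wild-type. The mice did not overlap, yet the difference missed the threshold, at a log2 fold change of -0.24 (SE 0.10, edgeR adjusted p = 0.0932). The technical repeats of *Ctbp1* gave different answers. With repeat 1 alone the log2 fold change was -0.56 (adjusted p = 0.0114), and with repeat 2 alone it was 0.03 (adjusted p = 0.930, both from edgeR's test). In all 3 wild-type mice repeat 2 was below repeat 1, by 0.41, 0.35 and 0.30 on the log2 scale. DESeq2 on the 6 mice also called *Ctbp1*, with an adjusted p of 0.0437.

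Of the genes working with CTBP1, *Rcor1* was higher, at 36.2 ± 1.29 against 20.6 ± 2.94 normalized CPM (SD, n = 3 each; log2 fold change 0.82, edgeR adjusted p = 0.00149), and so was *Kdm1a*, the demethylase that RCOR1 binds, at 48.3 ± 4.57 against 31.9 ± 3.91 (SD, n = 3 each; log2 fold change 0.60, edgeR adjusted p = 0.00659). *Hdac1*, shared with NuRD, was the only gene of the 7 tested that was called lower. *Ehmt1* and *Ehmt2*, which methylate histone H3, had log2 fold changes of -0.03 and 0.24 and were not called.

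**Figure D4:**
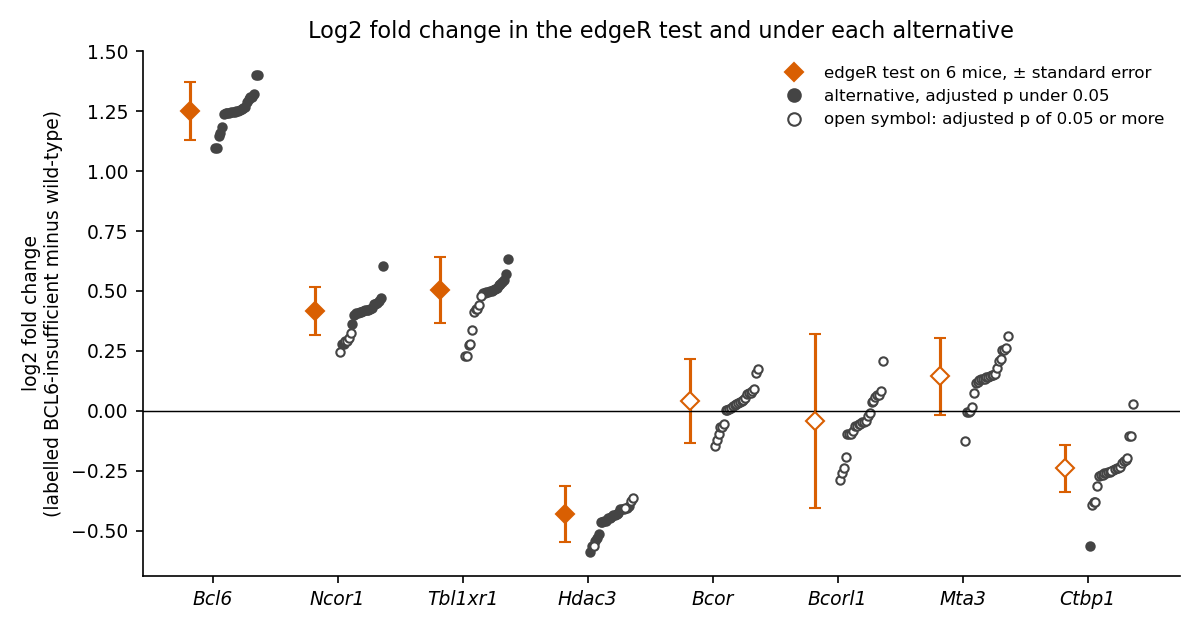
Log2 fold change of the 8 tested genes in edgeR's test on the 6 mice (orange diamond, with standard error) and under each alternative analysis (grey points in order of value). Filled symbols passed an adjusted p of 0.05. All points of *Bcl6* are filled and lie between 1.097 and 1.40, whereas *Bcor*, *Bcorl1*, *Mta3* and *Ctbp1* have points on both sides of 0.

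*Bcl6b* (chr11:70224128-70229798, minus strand), which encodes a BTB zinc finger protein with a BCL6-like DNA-binding domain, was near absent. The libraries labelled BCL6-insufficient held 8 and 1, 0 and 0, and 3 and 2 reads in repeats 1 and 2 of mice 1, 2 and 3. In the wild-type label, repeat 1 of mouse 1 held 7 reads and the other 5 libraries held 0. With 21 reads in all and 7 libraries at 0, no comparison between labels was made. A read count of this size in repeat 1 of a mouse was not met in its repeat 2, at 8 against 1 and at 7 against 0.

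Per kilobase of merged exons, which allows levels of different genes to be compared, *Ctbp1* was the highest of the 9 in both labels, at 30.6 ± 1.12 and 36.1 ± 1.46 normalized CPM per kb in the BCL6-insufficient and wild-type label (SD, n = 3 each). In the wild-type label *Hdac3* followed at 22.8 ± 0.801, *Ncor1* at 15.2 ± 1.63 and *Bcl6* at 9.32 ± 1.71 normalized CPM per kb (SD, n = 3 each), and no range of these 4 touched the next. In the BCL6-insufficient label *Bcl6* came next after *Ctbp1*, at 22.2 ± 0.325, above *Ncor1* at 20.3 ± 1.52 and *Hdac3* at 16.95 ± 1.99 normalized CPM per kb (SD, n = 3 each). The ranges of *Ncor1* and *Hdac3* overlapped there, and that of *Bcl6* lay just above *Ncor1*, at 21.8 to 22.4 against 18.8 to 21.8. *Mta3* (6.97 and 6.31) and *Tbl1xr1* (7.76 and 5.48 normalized CPM per kb in the BCL6-insufficient and wild-type label) had overlapping ranges in both labels. Below them came *Bcor* at 3.82 and 3.72, *Bcorl1* at 0.564 and 0.582, and *Bcl6b* at 0.105 and 0.0575 normalized CPM per kb in the BCL6-insufficient and wild-type label, and no ranges of *Bcor* and *Bcorl1* or of *Bcorl1* and *Bcl6b* overlapped. Per kilobase of the longest transcript the ranges of *Ncor1* and *Bcl6* overlapped in the wild-type label, at 18.9 to 23.1 and 13.9 to 19.2 normalized CPM per kb, with the mean of *Bcl6* still below that of *Ncor1*.

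**Figure D5:**
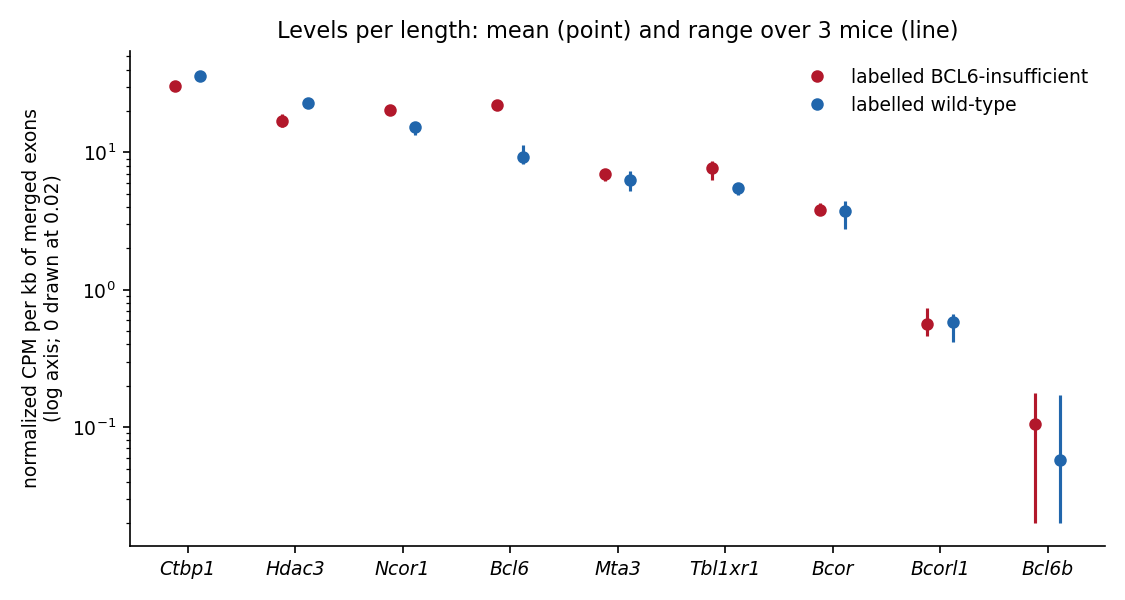
Normalized CPM per kilobase of merged exons (log axis) for the 9 genes, ordered by the wild-type label, with points for the mean and lines for the range over the 3 mice. *Bcl6* lies below *Ncor1* in the wild-type label at 9.32 and above *Hdac3* and *Ncor1* in the BCL6-insufficient label at 22.2.

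Genes of other families that bear on BCL6 were read from the same test. Of 5 class II histone deacetylases tested, which BCL6 is also known to bind, *Hdac4* (log2 fold change 0.62, adjusted p = 0.0242) and *Hdac7* (0.50, adjusted p = 0.00855, both from edgeR's test) were higher and none was lower. Of 16 other BTB zinc finger factors tested, *Zbtb32* was higher (0.78, adjusted p = 4.76e-05), and *Patz1* (-0.54, adjusted p = 0.0314) and *Zbtb7a* (-0.49, adjusted p = 0.0278, all from edgeR's test) were lower. The median log2 fold changes were 0.33 for the deacetylases and -0.06 for the BTB factors.

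Of 14 known regulators of *Bcl6* transcription tested, 2 were higher and 3 lower. *Maf*, which works with BCL6 in Tfh cells, had 74.4 ± 6.40 against 44.7 ± 10.4 normalized CPM (SD, n = 3 each; log2 fold change 0.74, edgeR adjusted p = 0.00115), and *Irf4*, a factor of T cell activation, rose as well (log2 fold change 0.70, edgeR adjusted p = 0.00947). Lower were *Tox2* (-0.80, adjusted p = 8.0e-06), *Lef1* (-0.60, adjusted p = 0.000606) and *Tcf7* (-0.27, adjusted p = 0.0216, all from edgeR's test), and LEF1 and TCF1, the product of *Tcf7*, are known to promote *Bcl6* transcription. *Stat3* and *Stat5b*, which encode factors of the STAT family whose core motif is marked in the promoters above, were not called. *Stat3* had a log2 fold change of -0.19 (adjusted p = 0.208) and *Stat5b* of -0.34 (adjusted p = 0.0567, both from edgeR's test).

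Of 19 genes tested that BCL6 is known to repress or bind, 5 were higher and 2 lower, and 12 were not called, with a median log2 fold change of 0.18. The largest differences among the genes called higher were *Id2*, an inhibitor of E proteins, at 22.1 ± 5.02 against 12.5 ± 3.37 normalized CPM (SD, n = 3 each, log2 fold change 0.82, edgeR adjusted p = 0.0145), and *S1pr1*, a receptor for lymph node egress (0.62, edgeR adjusted p = 0.000176). Among those called lower they were the cell cycle inhibitor *Cdkn1b* (-0.75, adjusted p = 0.00746) and *Trp53* (-0.41, adjusted p = 0.00348, both from edgeR's test). Larger but not called were *Cdkn1a* (2.02, adjusted p = 0.0704) and *Ccr6* (-1.17, adjusted p = 0.308, both from edgeR's test). The called share of each of these lists stands beside 18% over all genes tested, or 31.5% over the genes of at least 30 normalized CPM. Among the BCL6 targets the balance turned to 1 higher and 3 lower without wild-type mouse 3 and to 1 higher and 2 lower on log2(TPM + 1), and it was 1 and 1 without the 3 libraries richest in B cell transcripts. The counts of called genes per list moved by more than 1.5 times in at least 1 alternative for each list of complexes, factors, regulators and targets with called genes, and the marker lists were not refitted.

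The genes most like *Bcl6* from library to library were sought after the mean of each label had been subtracted, over 12 libraries and 7830 genes of at least 10 normalized CPM. They were *Proser1* (Pearson's r = 0.92, Spearman's rho = 0.78), *Nbn* (0.83, 0.69), *Tmem201* (0.82, 0.52), *Lmo4* (0.82, 0.87) and *Mtmr12* (0.81, 0.62). Repeat 1 of wild-type mouse 2 and repeat 1 of wild-type mouse 1 lay farthest from the median of these *Bcl6* values. Without both libraries r was 0.70 for *Proser1*, 0.31 for *Nbn*, 0.60 for *Tmem201*, 0.64 for *Lmo4* and 0.66 for *Mtmr12*. The part of each library alone was not tested. *Gm37419* was at place 12 in this order (r = 0.78, rho = 0.66, and r = 0.52 without those libraries). Of the corepressors, 6 were abundant enough to be included (*Bcorl1* was not), with r between -0.45 for *Hdac3* and 0.31 for *Tbl1xr1*. Without those libraries r ran from -0.44 for *Mta3*, which had been at 0.29, to 0.33 for *Bcor*, which had been at 0.09. The libraries of a mouse share its cells and are not independent.

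Total counts per library ran from 3343375 to 8315722, and a single ribosomal RNA gene took 12.03% to 20.9% of them, most in repeat 1 of wild-type mouse 2, the library with the highest *Bcl6* of its label. All 10 Tfh markers were detected in every library, and 2 of them were called higher and 4 lower in the BCL6-insufficient mice. Higher were *Icos* (log2 fold change 0.64, edgeR adjusted p = 0.000147) and *Trac* (0.55, edgeR adjusted p = 0.000151). The 10 summed to 8629 to 10272 normalized CPM in libraries labelled BCL6-insufficient and 6424 to 8553 in those labelled wild-type, mostly from *Trac*. The genes of both sort markers were among the lower. *Cxcr5* was at 222 to 266 normalized CPM in libraries labelled BCL6-insufficient and 292 to 340.3 in those labelled wild-type (log2 fold change -0.40, edgeR adjusted p = 0.00476), and the libraries did not overlap. *Pdcd1* was at 146 to 190 and 164 to 286 normalized CPM (log2 fold change -0.42, edgeR adjusted p = 0.0042), with some overlap. Of the 12 B cell markers, *Ighm* was by far the most abundant, at 449 to 602 normalized CPM in libraries labelled BCL6-insufficient and 572 to 868 in those labelled wild-type (log2 fold change -0.30, edgeR adjusted p = 0.0511), whereas the other 6 tested had positive log2 fold changes and were not called. The sum of all 12 was 464 to 798 and 583 to 977 normalized CPM. The sum of the 11 without *Ighm*, which was left out because it outweighs the rest, was 10.3 to 203 normalized CPM in libraries labelled BCL6-insufficient and 8.03 to 108 in those labelled wild-type, highest in BCL6-insufficient mouse 2 and wild-type mouse 3. Of the markers, *Ms4a1* was at 0 in 9, *Ebf1* in 11, *Cr2* in 8 and *Pax5* in 4 of the 12 libraries, whereas *Cd79a* and *Cd79b* were at 0 in 1 library each and *Cd74* and *Ighd* in none. *Bcl6* stood at 138 normalized CPM in the BCL6-insufficient library with the lowest such sum, the lowest *Bcl6* of the 6 libraries of that label. It stood at 146 in the library with the highest sum. The highest *Bcl6* of that label, 166, was in repeat 1 of mouse 1, where the sum was 14.9 normalized CPM. For the lists of other cells, the summed level over libraries in the BCL6-insufficient and wild-type label was 98.3 to 121 and 75.0 to 101 normalized CPM for 6 myeloid markers, 26.9 to 36.9 and 26.8 to 51.8 for 5 markers of CD8 T and NK cells, 155 to 196 and 83.1 to 161 for 5 regulatory T cell markers and 22.0 to 36.01 and 28.1 to 44.6 for 5 germinal center B cell markers. *Cst3* made up most of the myeloid sum, *Ikzf2* most of the regulatory T cell sum and *Cd8b1* most of the sum for CD8 T and NK cells, with *Cd8a* at 0 in 11 libraries. Without *Fas* and *S1pr2* the germinal center B cell markers summed to at most 1.24 and 1.30 normalized CPM in a library of the BCL6-insufficient and wild-type label. Called among these markers were *Lyz2* (7.77 against 1.24 normalized CPM, log2 fold change 2.64, adjusted p = 0.00531), *Nkg7* (5.42 against 1.83, log2 fold change 1.54, adjusted p = 0.0494) and *Ikzf2* (170.3 against 111, log2 fold change 0.62, adjusted p = 0.00204, all from edgeR's test), each higher in the BCL6-insufficient label. *Foxp3*, which defines regulatory T cells, was at 3.59 against 5.38 normalized CPM and was not called (edgeR adjusted p = 0.314). The part of these markers in the values of *Bcl6* and the corepressors was not tested.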

How the data were processed

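OT-II Tfh cells of 6 mice were sequenced as 12 libraries, 2 technical repeats per mouse. The authors aligned reads with HISAT2 2.2.1 to mm10 and deposited HTSeq counts, not normalized, of 24561 genes. The annotation release and strand setting are not given in the sources used here. TPM values deposited by the authors (24530 genes) entered alternatives only. No column was left unmapped.

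Counts of the repeats were summed per mouse, because repeats are not separate animals, and the 6 mice entered edgeR 4.0.16 under R 4.3.3 (scaling by TMM, filterByExpr, quasi-likelihood test, Benjamini-Hochberg adjustment over the 12719 genes tested, threshold 0.05). The standard error was the log2 fold change over the root of F. Where replicates are recipients of shared donor cells, p-values measure only the spread between these samples. Totals of a mouse ran from 10098419 to 14002507 counts, and without molecular identifiers the counting error is a lower limit.

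Coordinates, merged exon lengths and GC content came from GENCODE annotation of GRCm38, with 23801 symbols found by name, 209 by another symbol and 551 not found. Levels per kb used merged exons, and log2 CPM for correlations used a prior count of 2. Alternatives were DESeq2 1.42.0 and limma 3.58.1 (voom with the mouse as random effect, and log2 TPM with a pseudocount of 1 or 0.1), libraries as samples, each repeat alone, other scalings and filters, removal of GC and length trends with mgcv 1.9.3, the replicate number as a block, and leaving out each mouse. Leaving out the 3 libraries with the highest sum of B cell markers without *Ighm*, and 1 library that stood apart, was added after the data were seen. Tests on simulated counts covered edgeR and DESeq2 on the mice, limma on log2 values, voom, the block and the trend removal. Other scalings and filters, edgeR and DESeq2 on libraries, the block with trend removal and fits on fewer mice or libraries were not simulated.

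The 9 genes and the lists (corepressor complexes, class II deacetylases, BTB factors, *Bcl6* regulators, BCL6 targets, cell markers) were chosen from general knowledge, with earlier results of these data known. Genes named by rule, besides the 9, were up to 2 called genes per list and direction with the largest change and the 5 genes most correlated with *Bcl6*. Further list members are given as values, and *Gm37419* was singled out after its values were seen. Protein sequences of *Bcl6* and *Bcl6b* were not compared. A few list members, counted in their lists, are not reported here by name.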

Additional observations from a re-analysis of the deposited data

Results flagged for a closer look

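Among 18 groups of 6 libraries examined (the 8 tested genes and *Gm37419* in each label), 2 held a library far from the rest, and chance picks out about 1 in 20. Both were the same library, repeat 1 of wild-type mouse 2. Its *Bcl6* level was 100.01 normalized CPM, with the other 5 wild-type libraries at 46.6 to 63.0, and its *Gm37419* level was 16.4 normalized CPM, with the others at 4.33 to 8.36. The gap to the nearest library was 0.694 and 0.667 of the whole range, above Dixon's critical value of 0.625 for 6 samples. Without this library the log2 fold change of *Bcl6* was 1.40 and that of *Gm37419* was 1.09, and both passed the threshold in edgeR's test.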

How the results depend on the processing

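*Bcl6* kept its direction and passed the threshold in all 25 alternatives, with log2 fold changes of 1.16 to 1.40 when each mouse was left out. The 2288 genes called overall fell to 1059 with technical repeat 1 alone, 1446 with repeat 2 alone, 1305 on log2(TPM + 1), 1260 on log2(TPM + 0.1), 221 on log2(TPM + 1) over all genes and 1219 without the 3 libraries richest in B cell transcripts, and lay between 1424 and 1972 with 1 mouse left out, lowest without wild-type mouse 3. Of the 9 genes, 4 were called (*Bcl6* and 3 corepressors), against 2 with repeat 1 alone, 2 on log2(TPM + 1), 2 on log2(TPM + 0.1), 1 (*Bcl6*) on log2(TPM + 1) over all genes, 2 without the 3 libraries and 2 to 4 when each mouse was left out, and the cause was not tested. On log2(TPM + 0.1) the median of all genes was -0.11, against 0.01 in counts, and 374 of the 1260 genes called were higher (390 of 1305 on log2(TPM + 1)), against 1166 of 2288 in counts, so directions of small changes in TPM are relative to that shift.

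Signs turned only among the 4 genes not called. *Mta3* was at -0.13 with repeat 1 alone and -0.0036 and -0.0026 on TPM with pseudocounts of 1 and 0.1. *Bcor* was at -0.12 with repeat 2 alone, -0.069 (with or without a filter) and -0.098 on TPM with those pseudocounts, and -0.15 to 0.18 when each mouse was left out. *Bcorl1* was at 0.065 with repeat 2 alone, 0.21 without the 3 libraries, 0.059 without repeat 1 of wild-type mouse 2 and -0.29 to 0.083 when each mouse was left out. *Ctbp1* was at 0.027 with repeat 2 alone.

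Lengths of the longest transcript in place of merged exons changed the place of 2 genes, *Tbl1xr1* and *Mta3* in the BCL6-insufficient label. The ranges of *Ctbp1* and *Bcl6* then overlapped in that label, and those of *Ncor1* and *Bcl6* and of *Tbl1xr1* and *Bcor* in the wild-type label. TTCNNNGAA was found in 5 of the 9 promoters and TTCCTNGAA in 2.

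Between mice with the same number in the 2 labels, deviations from the label mean had Pearson's r across genes of 0.09, -0.03 and 0.02. Other pairs of mice had r of -0.08 to 0.06. With 3 mice per label these values cannot show whether the numbers pair the samples. With the replicate number as a block, 2579 genes (2288 without it) and 4 of the 9, again *Bcl6* and 3 corepressors, were called, with *Bcl6* at 1.27.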
